A study of Mus musculus with 18 samples.

Results

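The homeobox gene Hoxb1, from the anterior end of the Hox clusters, and SAG, a small molecule that activates Smoothened and with it hedgehog signalling, were given singly and together to neural progenitors made from mouse embryonic stem cells, and the question for each gene was whether the effect of Hoxb1 differed with and without SAG. The 12 neural progenitor libraries of the 18 in the series were used, in 4 groups of 3, all of strain C57BL/6. The first group did not express Hoxb1 and had no SAG ("neither" below), the second expressed Hoxb1 and was given doxycycline (DOX, "Hoxb1 alone"), the third did not express Hoxb1 and was given SAG ("SAG alone"), and the fourth expressed Hoxb1 and was given DOX and SAG ("both"). Since the cultures that expressed Hoxb1 were the ones with DOX, Hoxb1 and DOX cannot be told apart, and the line or clone of each culture, the promoter that drives Hoxb1 and the doses are not known here. The Hoxb1 effect is the log2 ratio of Hoxb1 to no Hoxb1, and the quantity followed here is the effect with SAG minus the effect without SAG, fitted over all 16238 tested genes. The study as a whole also sequenced wild-type and Hoxb1-null neuromesodermal progenitors (NMPs, cells that give rise to spinal cord and paraxial mesoderm), 3 libraries each, which serve here as a separate readout.

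Hoxb1 marks rhombomere 4 of the hindbrain, where it acts with PBX and MEIS cofactors, keeps its own gene on and raises Hoxb2. Sonic hedgehog from the notochord and floor plate patterns the ventral neural tube through Smoothened and the GLI factors, with Ptch1, Gli1 and Hhip as transcriptional targets and floor plate, V3, motor neuron and more dorsal progenitor genes set at different signal strengths. Rhombomere 4 is a region where the cues meet, since its ventral progenitors form facial branchiomotor neurons.

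Libraries held 13301476 to 14505711 counts without SAG and 22610407 to 26974315 with SAG, and each level below is in CPM, on the effective library size. The labels number the libraries 2533 to 2538 with SAG and 7390 to 7395 without it, so that SAG and the library set cannot be told apart. Each Hoxb1 effect lies within a set, but the difference of the effects compares the sets, so the same limit holds for it. Raised, lowered or changed by SAG below means a difference between libraries with and without SAG. Whether the 3 libraries of a group came from separate cultures is not given, and the p-values then measure the spread between these libraries only, which was small (biological coefficient of variation 2.91%). The first principal component of the 1000 most variable genes (64.9% of the variance) followed SAG and the second (24.5%) followed Hoxb1, and the third (6.11%) set neither and both apart from the groups with 1 agent. The summed level of 7 neural progenitor markers (among them Sox1, Sox2, Sox3, Nes, Hes5 and Fabp7) was 2268 to 2455 CPM with neither, 2209 to 2254 with Hoxb1 alone, 1537 to 1653 with SAG alone and 1140 to 1203 with both. The markers were thus present in all groups and lowest with both. The sums of neuron, pluripotent cell and mesenchyme markers are given further below. The muscle markers Myod1 and Myog together reached at most 1.01 CPM and the endoderm markers Sox17, Foxa3 and Afp together at most 3.55 CPM in any library, with Afp at or near 0. The mesoderm markers T, Tbx6 and Msgn1 summed to 15.1 to 16.1 CPM with neither, 7.11 to 7.81 with Hoxb1 alone, 31.9 to 32.8 with SAG alone and 11.9 to 12.4 with both, nearly all of it T and Tbx6, with Msgn1 at or near 0, and their part in the results was not tested.

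Some libraries differed by chromosome, those with both in Y-linked genes and chromosome 11 and those with SAG in chromosome 8. The Y-linked gene Ddx3y was at 31.9, 30.7 and 31.9 CPM with neither, 29.5, 34.7 and 32 with Hoxb1 alone, 36.5, 38.5 and 37.8 with SAG alone and 11.5, 11.4 and 10.7 with both, and Eif2s3y and Uty were also lower (differences -1.37 and -1.63). Of the other tested Y-linked genes, Kdm5d and Uba1y, both under 2 CPM, were not called, and Gm47283 rose by 0.53 on the log2 scale. Among genes at 5 CPM or more, the 1011 genes of chromosome 11 had a median Hoxb1 effect of 0.00511 without SAG and -0.126 with SAG, and 403 of them were called lower and 90 higher in the difference. The 659 genes of chromosome 8 had a median difference of 0.0777, with 217 called higher and 103 lower, while the medians of the other 18 chromosomes lay between -0.0292 and 0.0422. Chromosome 8 also stood apart without Hoxb1: its median SAG effect was -0.256 without and -0.143 with Hoxb1, against -0.0779 to 0.0732 without Hoxb1 on the other 18 chromosomes. Without chromosomes 8, 11 and Y, 4853 of 14039 genes (34.6%) were called, against 5759 of 16238 (35.5%) with them, in a count added after the values were seen. The part of these chromosome differences in the results of single genes was not tested, and genes of chromosomes 8 and 11 are named as such where they are described.

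**Figure D1:**
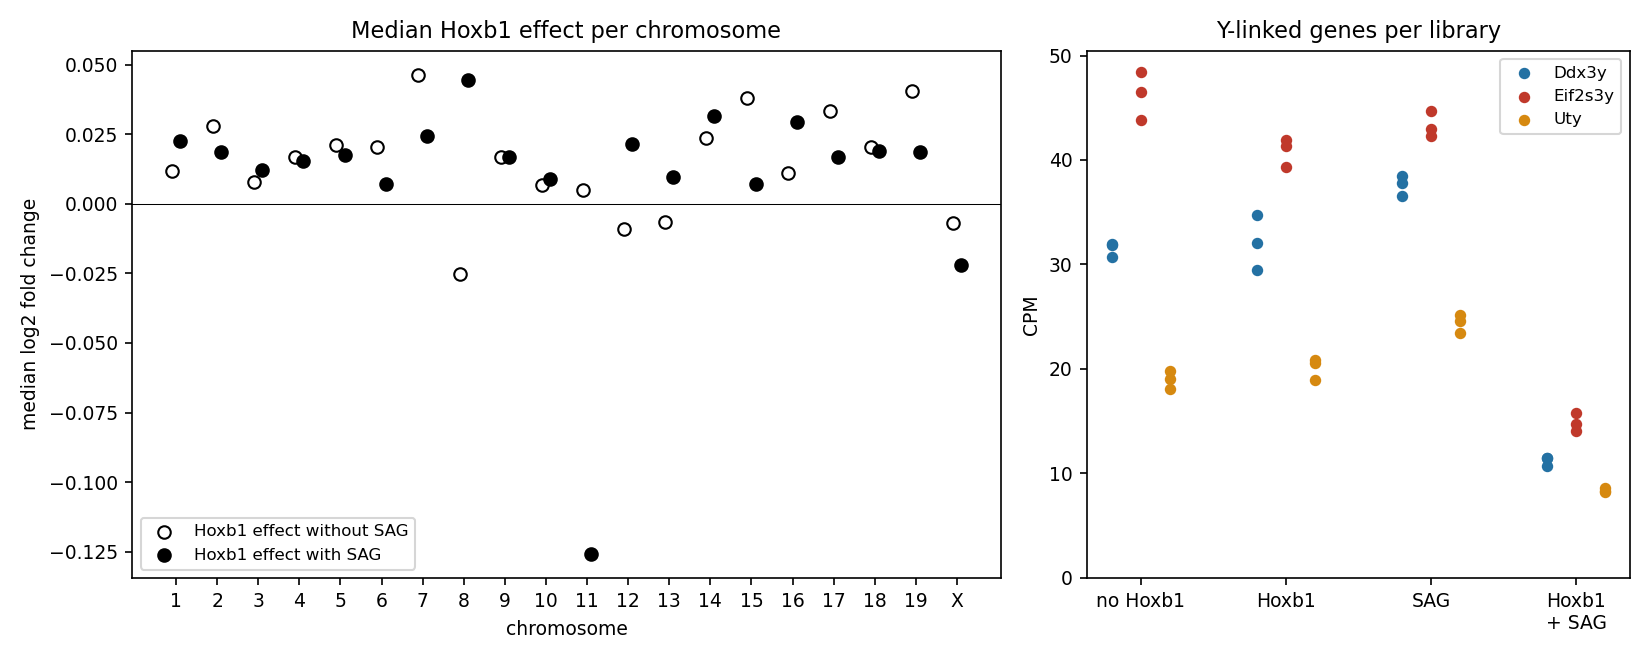
Left: median Hoxb1 effect (log2 fold change, vertical axis) per chromosome for genes at 5 CPM or more, without SAG (open) and with SAG (filled). Right: level in CPM of 3 Y-linked genes in each library (points) of the 4 groups. Chromosome 11 with SAG, at -0.126, lies apart from the other medians, and Ddx3y, Eif2s3y and Uty are lowest in the 3 libraries with both.

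The Hoxb1 effect of 5759 genes differed between the libraries with and without SAG (35.5% of those tested, edgeR quasi-likelihood F-test, adjusted p under 0.05). It was higher with SAG for 2733 of them (16.8%) and lower for 3026 (18.6%), and 852 (5.25%) differed by 2-fold or more. Hoxb1 alone changed 7499 genes (46.2%; 24.1% higher, 22.1% lower) and Hoxb1 on top of SAG changed 7045 (43.4%; 21.4% higher, 21.9% lower). Between libraries with and without SAG, 11810 genes (72.7%; 36.5% higher, 36.3% lower) differed without Hoxb1 and 11726 (72.2%; 36.4% higher, 35.8% lower) with it. These SAG counts also run across the library sets and their depths, so they are not ranked against those of Hoxb1. A called gene was put under sign change where both effects were called with opposite signs, and otherwise under synergy where the effect was larger in size with SAG and under cancelling where it was smaller. Cancelling held 3145 genes (19.4%), synergy 1703 (10.5%) and sign change 911 (5.61%). These shares, with the 35.5% called, 16.8% higher and 18.6% lower, are the ones to set beside each count of list members below. Of the cancelling genes, 2176 had a called Hoxb1 effect only without SAG and 793 had both called, and of the synergy genes, 1291 had a called effect only with SAG and 369 both. Among the 4091 genes with both effects called, 3180 changed in the same direction and 911 in opposite directions. The median size of the Hoxb1 effect over all tested genes was 0.188 without and 0.142 with SAG, and the median difference was -0.00333 (log2).

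**Figure D2:**
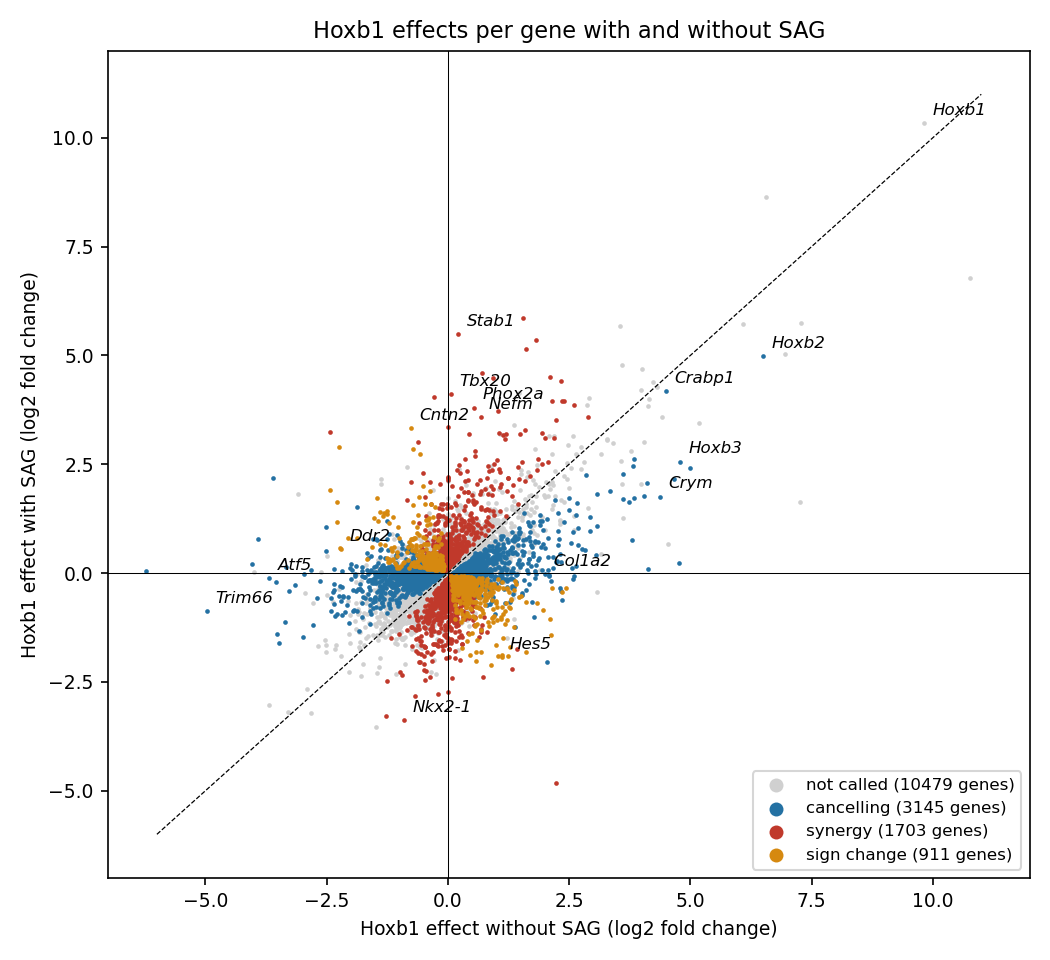
Hoxb1 effect on each of the 16238 tested genes without SAG (horizontal axis) and with SAG (vertical axis), both as log2 fold changes, coloured by class; the dashed line marks equal effects. Cancelling genes lie along the horizontal axis, synergy genes along the vertical axis and sign change genes in the upper left and lower right quadrants, with Hoxb1 and Crabp1 near the dashed line.

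The classes differed in which group stood apart, a description that the rule partly fixes and that carries no test. Of the 1543 cancelling genes that fell with Hoxb1 alone, 893 (57.9%) had all 3 libraries with neither above the other 9 libraries, against 13.3% of all tested genes, so that Hoxb1, SAG and both all left them lower. Of the 1602 cancelling genes that rose with Hoxb1 alone, 790 (49.3%) were highest in all 3 Hoxb1-alone libraries (13% of all tested genes) and 827 (51.6%) were lowest with neither (12.2%). Of the 822 synergy genes that rose, 457 were lowest in the 3 SAG-alone libraries (55.6%, against 9.87%) and 337 highest with both (41%, against 10%), and of the 881 that fell, 503 were lowest with both (against 11.1%) and 357 highest with SAG alone (against 9.77%). Many risers thus started from a level that was lowest with SAG alone.

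Hoxb1 itself was induced with and without SAG, and most anterior Hox genes rose less in fold with SAG. Hoxb1 was at 0.369, 0.668 and 0.0725 CPM with neither, 349.5, 343 and 317 CPM with Hoxb1 alone, 0.519, 0.396 and 0.51 CPM with SAG alone and 635, 597 and 612 CPM with both. The induced level was higher with SAG in every library, the 2 groups without induction overlapped, and the part of the Hoxb1 level in the other results was not tested. For Hoxb1 the Hoxb1 effects were 9.81 without and 10.33 with SAG (log2), differing by 0.52 (SE 0.483, adjusted p = 0.441), which did not pass the threshold. Reads of the induced copy and of the endogenous gene cannot be told apart in these counts. Most members of Hox groups 1 to 4 fell under cancelling (6 of 9 tested, with 1 under synergy), 5 with a lower and 2 with a higher effect with SAG. Hoxb2 was at 0.737, 0.816 and 0.725 CPM with neither, 73.4, 67 and 68.1 CPM with Hoxb1 alone, 2.64, 2.2 and 2.38 CPM with SAG alone and 77.6, 76.7 and 73.4 CPM with both. Hoxb2, a direct Hoxb1 target in rhombomere 4, stood higher with SAG alone than with neither in all libraries, and its induced levels overlapped little (67.0 to 73.4 against 73.4 to 77.6 CPM). Hoxb2 had Hoxb1 effects of 6.51 without and 4.98 with SAG (log2), and the difference was -1.52 (SE 0.235, adjusted p = 1.28e-06), whereas the rise in CPM was 4.74 larger with SAG. Hoxb3 was at 0.664, 0.816 and 0.725 CPM with neither, 20.2, 21.7 and 19.3 CPM with Hoxb1 alone, 2.64, 2.96 and 2.89 CPM with SAG alone and 15.5, 17.1 and 17.6 CPM with both. Hoxb3 showed the same order at the start and a lower induced level with SAG, a difference of -2.22 (SE 0.241, adjusted p = 5.28e-10). Hoxb1, Hoxb2 and Hoxb3 lie on chromosome 11, where the median difference was -0.112. Hoxa2 was at 1.92, 2.08 and 1.3 CPM with neither, 19.6, 23.4 and 21.9 CPM with Hoxb1 alone, 1.34, 1.55 and 1.57 CPM with SAG alone and 4.05, 5.6 and 4.9 CPM with both. Hoxa2, which patterns rhombomeres from rhombomere 2 back, lies on chromosome 6, and its Hoxb1-alone libraries stood above all others without overlap, with a difference of -1.91 (SE 0.252, adjusted p = 5.31e-08). Hoxaas2, a Hoxa cluster antisense RNA by its name, followed the same pattern (1.13, 36.2, 0.895 and 4.84 CPM in the same order of groups), and whether the counting used strand is not known here, so its reads and those of overlapping Hoxa genes cannot be told apart.

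The promoter letters of 2 Hox genes are shown because HOX and PBX proteins are known to bind TGATNNAT sites at these loci. Each is the 250 bases before the start from RefSeq (GRCm38.p6), 5′ to 3′, with TGATNNAT on either strand in capitals, for Hoxb1 (chr11:96365508-96365757, plus strand) and Hoxa2 (chr6:52164832-52165081, minus strand).
Hoxb1: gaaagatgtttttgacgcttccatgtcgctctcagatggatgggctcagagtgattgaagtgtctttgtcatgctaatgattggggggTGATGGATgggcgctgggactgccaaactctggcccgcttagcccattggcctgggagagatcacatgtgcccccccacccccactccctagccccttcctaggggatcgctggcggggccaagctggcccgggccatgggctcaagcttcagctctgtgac
Hoxa2: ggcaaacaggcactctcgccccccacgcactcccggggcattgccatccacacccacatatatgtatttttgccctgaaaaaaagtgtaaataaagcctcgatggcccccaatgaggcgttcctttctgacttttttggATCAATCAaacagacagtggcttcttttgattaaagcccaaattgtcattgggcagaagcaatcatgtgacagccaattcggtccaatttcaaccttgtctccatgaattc
The letters occurred in 8.85% of all 32851 annotated promoters of this table (250 bases before to 50 after the start, both strands) and in 4.45% of those of tested genes, 4.75% in synergy, 5.02% in cancelling and 3.63% in sign change. The GLI letters GACCACCCA occurred in 0.19% of the promoters of tested genes and in none of the 11 of the hedgehog list. A match is a description of letters and not a site.

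More posterior Hox genes, which pattern the spinal cord, were at low levels. Hoxb9, on chromosome 11, was at 3.02, 2.38 and 3.41 CPM with neither, 1.42, 0.851 and 1.36 with Hoxb1 alone, 1.56, 1.44 and 1.66 with SAG alone and 3.87, 4.55 and 4.01 with both. Hoxb9 changed sign, with effects of -1.26 and 1.42 and a difference of 2.68 (SE 0.282, adjusted p = 2.42e-10). Of the listed genes, 11 of 15 of groups 5 to 9 and 8 of 12 of groups 10 to 13 passed the filter on low counts, some of them through the group with both, so that their being highest there is partly fixed by the filter. With both, the means of the 8 tested genes of groups 10 to 13 were 0.815 to 6.93 CPM. Hoxa10 was called, with a difference of 2.47 (SE 0.645, adjusted p = 0.00218), but missed the threshold without the third library with neither (adjusted p = 0.0656).

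Other hindbrain genes split between the classes, 3 of 10 tested with a higher and 6 with a lower Hoxb1 effect with SAG (16.8% and 18.6% of all tested genes). Egr2 (Krox20), the regulator of rhombomeres 3 and 5, was at 1.76, 1.27, 4.85 and 9.67 CPM on average with neither, Hoxb1 alone, SAG alone and both, a difference of 1.47 (SE 0.288, adjusted p = 7.46e-05). Fgf3, a rhombomere 4 signal, changed sign, with effects of 1.3 without and -0.62 with SAG and group means of 1.54, 3.79, 3.92 and 2.55 CPM. Of the cofactor genes, 4 of the 9 TALE homeodomain genes passed (44.4%, near the 35.5% of all tested genes), with a median difference of 0.0588. Crabp1, which binds retinoic acid, rose from 16.6 ± 1.8 to 374 ± 8.14 CPM (SD, n = 3) without SAG and from 18.2 ± 0.595 to 329 ± 7.61 CPM with SAG, a difference of -0.32 (SE 0.074, adjusted p = 0.000716). Of the 15 retinoid genes, 6 had a higher effect with SAG, among them Rdh10, which makes retinaldehyde (19.3, 18.7, 19.6 and 47.1 CPM, difference 1.31), and 4 a lower one.

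In the branchiomotor and cholinergic list, Phox2a and Tbx20 were far higher with both than with either agent. Of the 15 tested members of this list, 8 fell under synergy (10.5% of all tested genes) and 3 under cancelling and 4 were not called, 9 with a higher and 2 with a lower effect with SAG, and the median difference was 0.74 against -0.00333 over all tested genes. Phox2a was at 2.73, 2.89 and 2.39 CPM with neither, 3.26, 4.25 and 4.24 CPM with Hoxb1 alone, 2.94, 2.13 and 2.42 CPM with SAG alone and 34.9, 34.7 and 34.1 CPM with both. Phox2a, a homeodomain factor of these neurons, was within a range of 2.13 to 4.25 CPM in 9 libraries and stood well above it in the 3 with both. The Hoxb1 effect on Phox2a was 0.55 without and 3.8 with SAG (log2), a difference of 3.25 (SE 0.221, adjusted p = 1.01e-15). Tbx20 was at 1.03, 0.223 and 0.29 CPM with neither, 0.639, 0.464 and 0.503 CPM with Hoxb1 alone, 2.16, 2.2 and 2.46 CPM with SAG alone and 39.5, 38.4 and 39.6 CPM with both. Tbx20, a T-box factor of cranial motor neurons, stayed at or below 1.03 CPM without SAG and rose with Hoxb1 only in the libraries with SAG. For Tbx20 the Hoxb1 effects were 0.06 without and 4.1 with SAG (log2), differing by 4.04 (SE 0.523, adjusted p = 3.46e-08).

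Isl1 was at 7.52, 6.68 and 6.23 CPM with neither, 6.81, 5.95 and 4.6 CPM with Hoxb1 alone, 21.7, 19.7 and 21.4 CPM with SAG alone and 45.1, 46.1 and 48.3 CPM with both. Isl1, a LIM homeodomain factor of motor neurons, did not separate with Hoxb1 in the absence of SAG and was highest in the 3 libraries with both. Isl1 had Hoxb1 effects of -0.23 without and 1.15 with SAG (log2), and the difference was 1.39 (SE 0.146, adjusted p = 2.44e-10). Ret, a receptor of developing motor neurons, rose from 2.45 to 9.45 CPM without SAG and from 5.23 to 49.2 CPM with it (difference 1.28, SE 0.182, adjusted p = 2.4e-07). Rgs4 behaved alike, at 5.91, 13.6, 5.35 and 49.4 CPM, with a difference of 2.0 (SE 0.151, adjusted p = 2.32e-14). Nkx6-1, a ventral progenitor factor needed for these neurons, was at 16.1, 16.1 and 19.6 CPM with neither, 50.7, 52.5 and 52.1 with Hoxb1 alone, 80.6, 80.3 and 80.6 with SAG alone and 353, 348 and 351 with both. Each agent raised Nkx6-1 and no groups overlapped, and the difference in effects was small, 0.54 (SE 0.0714, adjusted p = 5.67e-08). The cholinergic genes Chat (0.147, 1.78, 0.126 and 6.5 CPM, adjusted p = 0.0556) and Slc5a7 (0.831, 0.658, 2.18 and 2.38 CPM, adjusted p = 0.423) did not pass. Of the 9 somatic motor neuron factors, 5 passed (35.5% of all tested genes), and the defining genes Mnx1, Lhx3, Lhx4 and Isl2 were not among them. Lhx4 had Hoxb1 effects of 4.23 and 4.39, a difference of 0.16 (SE 0.36, adjusted p = 0.783).

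**Figure D3:**
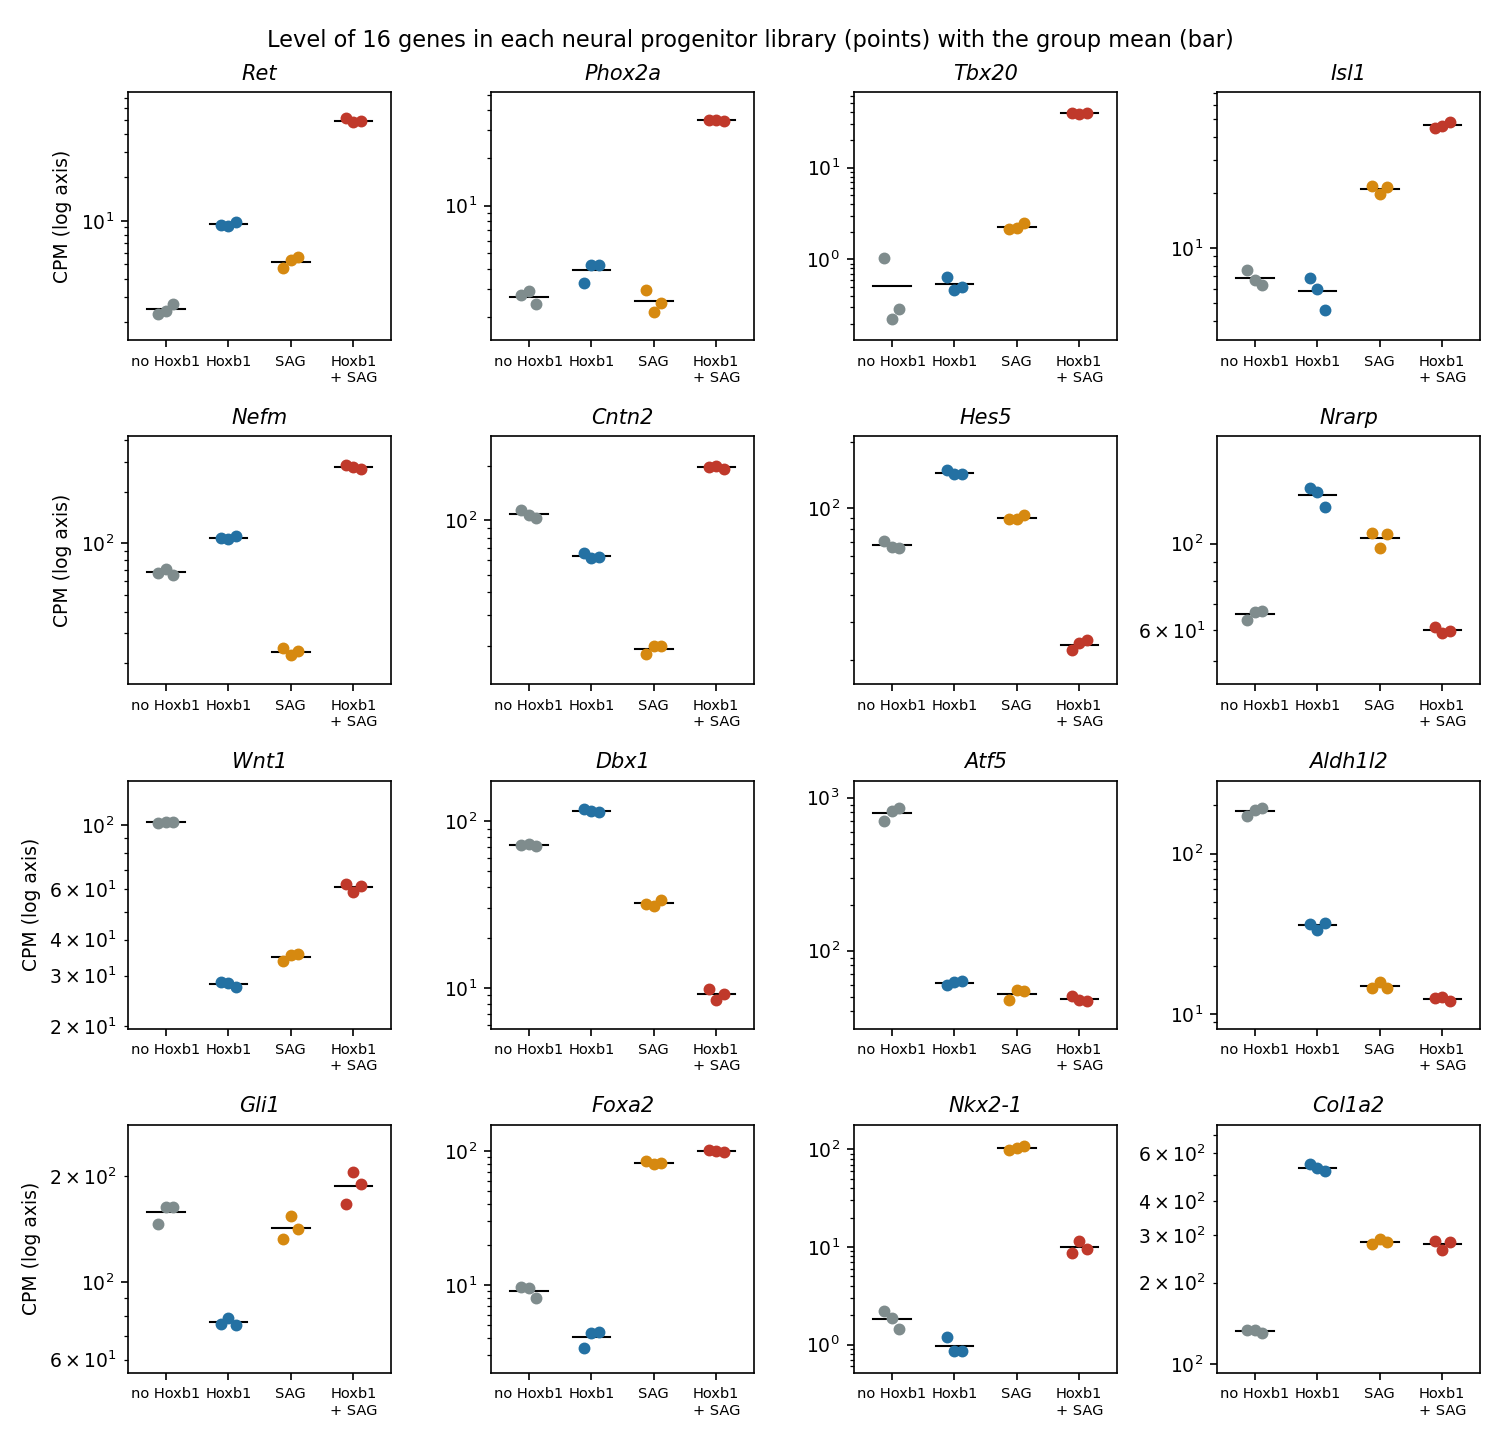
Level in CPM (log axis, a separate scale per gene) in each of the 12 libraries (points) with the group mean (bar), for genes of the branchiomotor list, neuronal genes, Notch targets, patterning genes, stress genes and Col1a2. Ret, Phox2a, Tbx20, Isl1, Nefm and Cntn2 are highest with both, Hes5 and Dbx1 are highest with Hoxb1 alone and lowest with both, and Atf5 and Aldh1l2 are highest with neither.

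Neuronal genes did not move as 1 block. Of 23 postmitotic neuron genes 19 passed (35.5% of all tested genes), 9 with a higher and 10 with a lower Hoxb1 effect with SAG (16.8% and 18.6%). Of these, 11 fell under synergy, 5 under cancelling and 3 under sign change (10.5%, 19.4% and 5.61% of all tested genes). Nefm was at 66.7, 70.4 and 65.7 CPM with neither, 108, 106 and 110.4 CPM with Hoxb1 alone, 24.5, 22.2 and 23.4 CPM with SAG alone and 286, 279 and 271 CPM with both. Nefm, a neurofilament subunit of large projection neurons, was lowest with SAG alone and highest with both, with a difference of 2.9 (SE 0.0591, adjusted p = 1.38e-33). Nefl, its partner, was at 127 ± 4.91, 279 ± 13.7, 39.8 ± 3.53 and 356 ± 14.5 CPM (SD, n = 3 each) in the same order, a difference of 2.02 (SE 0.0689, adjusted p = 8.14e-17). The early neuronal factors Nhlh1, Nhlh2, Ebf1, Ebf2 and Ebf3 rose more with SAG, by 1.55, 1.48, 1.45, 0.98 and 0.86 on the log2 scale, although for Nhlh1 the difference of the rises in CPM was -42.8. General neuronal genes went the other way: Tubb3 (-0.26), Dcx (-0.54), Map2 (-0.51) and Myt1 (-0.93) all had a lower effect with SAG, Tubb3 being on chromosome 8 and Ebf1 on chromosome 11. The summed level of the neuron markers Tubb3, Elavl3, Dcx and Stmn2 was 841 to 912 CPM with neither, 1172 to 1237 with Hoxb1 alone, 556 to 583 with SAG alone and 625 to 642 with both. In these bulk libraries, fewer neurons and less of each RNA per neuron cannot be told apart, and the part of neuron number in the results on neuronal genes was not tested.

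Axon guidance genes held many sign changes, and Cntn2 had the lowest adjusted p of the genes named here. Cntn2 was at 114, 106 and 102 CPM with neither, 65.6, 61.9 and 62.4 CPM with Hoxb1 alone, 18.1, 20.2 and 20.1 CPM with SAG alone and 196, 199 and 192 CPM with both. Cntn2 (TAG1), an adhesion molecule of growing axons, fell with Hoxb1 alone and rose on top of SAG, with no overlap between groups. The Hoxb1 effect on Cntn2 was -0.77 without and 3.33 with SAG (log2), a difference of 4.09 (SE 0.0636, adjusted p = 9.54e-38). Sema3d, a secreted guidance cue, went from 7.32 to 5.1 CPM without SAG and from 6.57 to 26.5 CPM with SAG (difference 2.53, SE 0.147, adjusted p = 6.74e-18). The semaphorin receptor Nrp2 fell from 298 to 186 CPM without and rose from 122 to 214 CPM with SAG (1.5), and the ephrin receptor Ephb1 did the reverse (45, 55.1, 66.1 and 34.5 CPM, -1.23). Of 32 axon guidance genes 26 passed, 11 of them by sign change (5.61% of all tested genes), 11 with a higher and 15 with a lower effect with SAG. Among 18 cadherins and protocadherins, 4 were higher and 10 lower, 7 under synergy, 6 under cancelling and 1 under sign change, with Cdh8 (chromosome 8) at 24.8, 16.9, 18 and 5.72 CPM (-1.1) and Cdh4 at 208, 123, 36.7 and 41.6 CPM (0.94).

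Notch pathway genes, through which neighbouring progenitors hold each other back from neurogenesis, held many sign changes, in most of which Hoxb1 raised the gene without SAG and lowered it with SAG. Of 20 tested members, 16 passed, 10 under sign change, 3 under synergy and 3 under cancelling, 14 with a lower and 2 with a higher effect with SAG, and the median Hoxb1 effect went from 0.58 to -0.26 (log2). The promoters of 2 target genes are shown because RBPJ, the DNA-binding partner of Notch, is known to bind GTGGGAA. The 250 bases before the start are from RefSeq (GRCm38.p6), with GTGGGAA on either strand in capitals, for Hes5 (chr4:154960673-154960922, plus strand) and Hey2 (chr10:30842784-30843033, minus strand).
Hes5: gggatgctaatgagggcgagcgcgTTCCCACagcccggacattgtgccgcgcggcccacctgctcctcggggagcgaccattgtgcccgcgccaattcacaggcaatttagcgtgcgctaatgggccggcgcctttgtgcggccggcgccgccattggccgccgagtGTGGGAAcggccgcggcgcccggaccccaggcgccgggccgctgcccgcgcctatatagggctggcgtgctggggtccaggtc
Hey2: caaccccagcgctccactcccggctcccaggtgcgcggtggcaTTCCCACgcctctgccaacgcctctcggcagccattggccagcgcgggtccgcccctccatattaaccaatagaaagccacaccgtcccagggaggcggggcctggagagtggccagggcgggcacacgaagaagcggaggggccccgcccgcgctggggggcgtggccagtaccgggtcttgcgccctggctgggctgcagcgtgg
The letters occurred in 6.26% of promoters of tested genes and in 3 of the 16 promoters found for this list (18.8%), and in 5.76% of those of sign change genes.

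Hes5 was at 70.5, 65.9 and 65.4 CPM with neither, 149, 143 and 143 CPM with Hoxb1 alone, 88.6, 88.8 and 92.9 CPM with SAG alone and 22.1, 23.9 and 24.7 CPM with both. Hes5, the bHLH repressor that reads out Notch in neural progenitors, was highest with Hoxb1 alone and lowest with both, and none of the 4 groups overlapped. For Hes5 the Hoxb1 effects were 1.11 without and -1.93 with SAG (log2), differing by -3.04 (SE 0.0617, adjusted p = 1.38e-33). Nrarp was at 63.7, 66.7 and 67.2 CPM with neither, 139, 136 and 124 CPM with Hoxb1 alone, 107, 97.6 and 106 CPM with SAG alone and 61.1, 59.1 and 59.5 CPM with both. Nrarp, a feedback inhibitor of Notch, was high with Hoxb1 alone, and the libraries with both lay below all the others. Its difference was -1.8 (SE 0.0612, adjusted p = 1.51e-25). Hey2 was at 2.43, 2.75 and 1.67 CPM with neither, 5.61, 6.03 and 6.46 CPM with Hoxb1 alone, 6.62, 6.63 and 7.01 CPM with SAG alone and 5.85, 5.64 and 5.46 CPM with both. The repressor gene Hey2 rose with Hoxb1 alone but its libraries with both overlapped those with Hoxb1 alone, and the difference was -1.66 (SE 0.197, adjusted p = 4.84e-09). The ligand Dll1 was at 121, 225, 126 and 88.3 CPM on average and the receptor Notch1 at 238, 484, 232 and 210.1 CPM with neither, Hoxb1 alone, SAG alone and both, with differences of -1.4 and -1.17. Dll3 (-1.06), Hey1 (-1.64), Hes6 (-0.94) and Dner (-1.6) changed sign in the same way. Hes1 changed sign in the opposite direction, falling from 74.8 to 44.7 CPM without SAG and rising from 84.7 to 100.3 CPM with it (0.99). In all, 11 of the 20 were highest in the 3 Hoxb1-alone libraries (13% of all tested genes) and 8 lowest in the 3 with both (11.1%). Hes5 is itself one of the 7 neural progenitor markers, whose sum was also lowest with both, and the part of progenitor number in these values was not tested. Of 13 SoxB1 and radial glia genes 8 were lower and 1 higher, among them Sox3 (0.8 and -0.54), Sox9 (0.18 and -0.83) and Sox1 (-0.44 and -1.05), with Sox9 on chromosome 11 and Sox1 on chromosome 8, while the Sox2 difference was 0.16 (SE 0.0455, adjusted p = 0.00379).

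**Figure D4:**
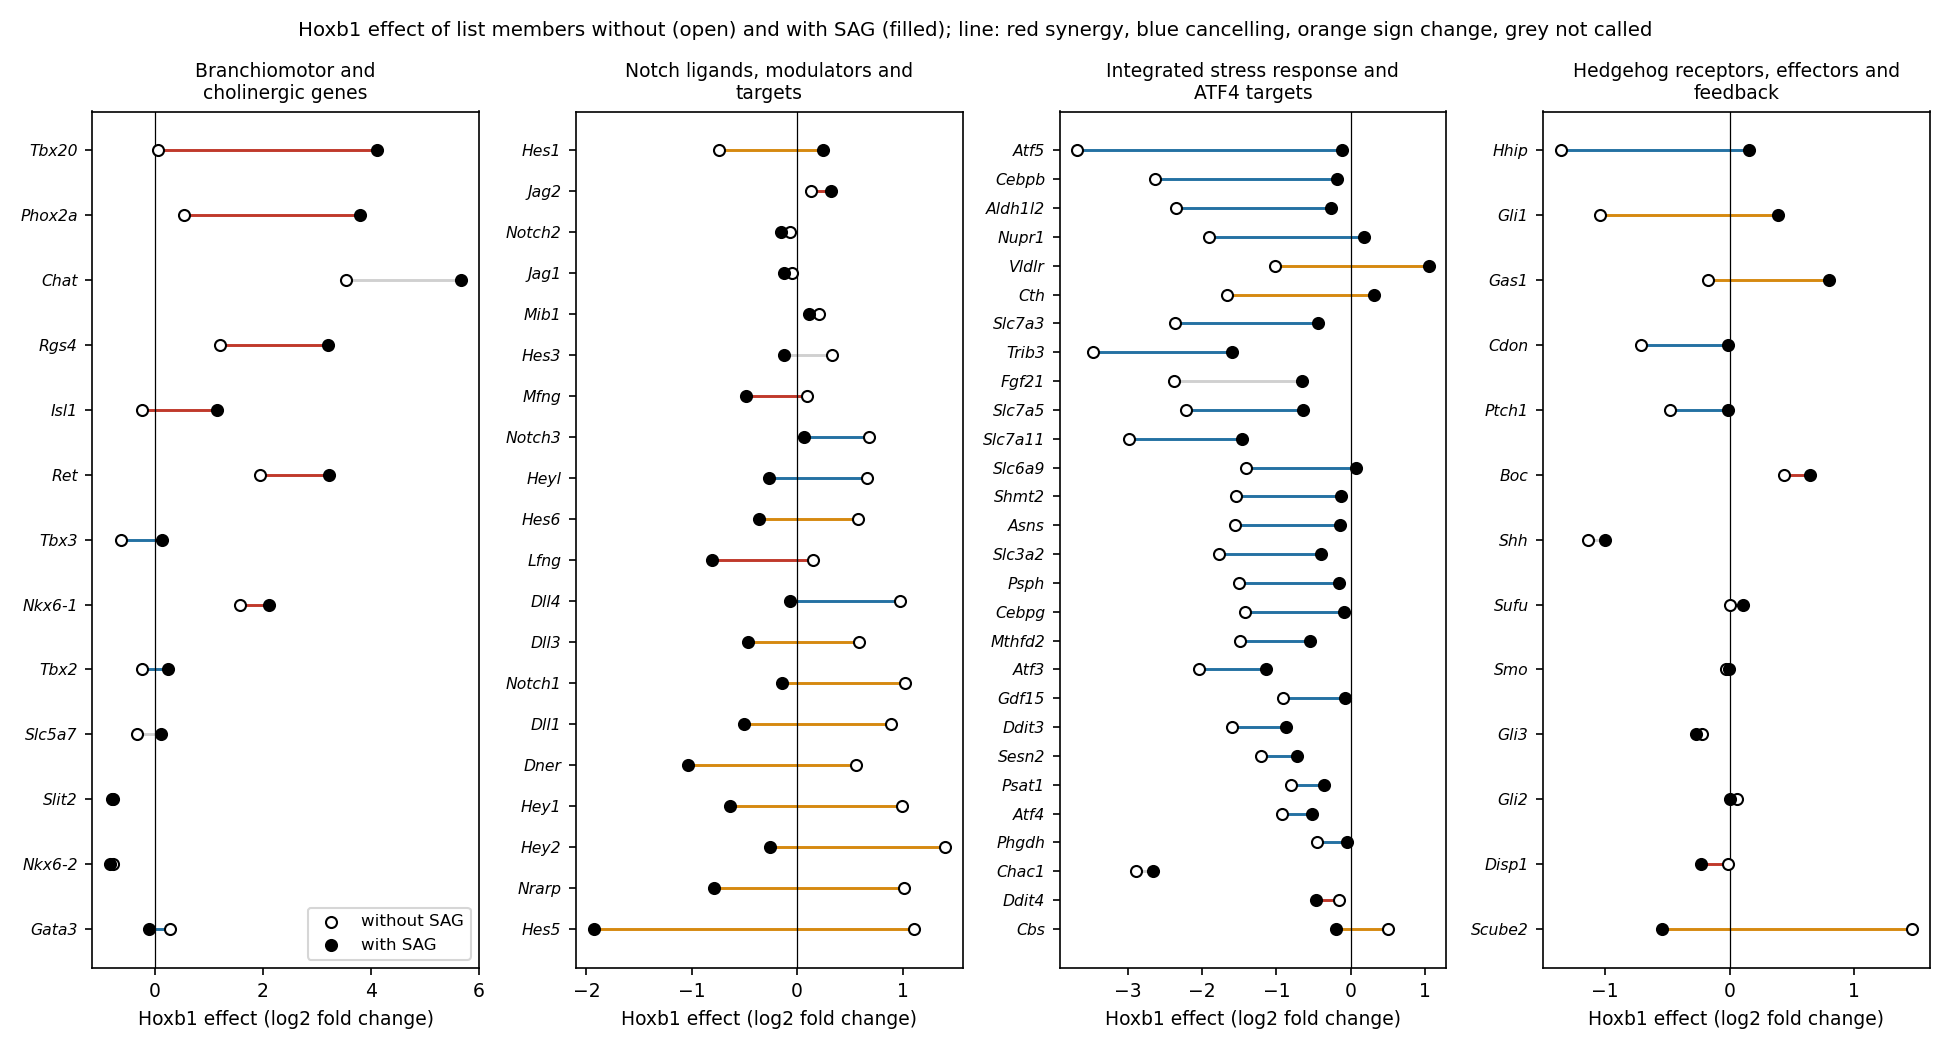
Hoxb1 effect (log2 fold change, horizontal axis) on tested members of 4 lists without SAG (open) and with SAG (filled), joined by a line coloured by class. Most Notch members cross 0 from right to left, most stress members move from far below 0 to near 0, and Phox2a and Tbx20 move to the right.

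The hedgehog targets Gli1, Ptch1 and Hhip were lowered by Hoxb1 without SAG and not with it. Of 14 tested receptors, effectors and feedback genes 9 passed, 7 with a higher and 2 with a lower effect with SAG, and 5 were lowest in the 3 Hoxb1-alone libraries (9.97% of all tested genes). Gli1 was at 146, 163 and 164 CPM with neither, 75.9, 78.8 and 75.3 CPM with Hoxb1 alone, 132, 154 and 142 CPM with SAG alone and 167, 205 and 189 CPM with both. Gli1, the transcriptional effector and target of the pathway, was lowest with Hoxb1 alone and highest with both, and the libraries with SAG alone overlapped those with neither. Gli1 had Hoxb1 effects of -1.04 without and 0.39 with SAG (log2), and the difference was 1.43 (SE 0.127, adjusted p = 1.76e-05). Ptch1 was at 254, 285 and 304 CPM with neither, 207, 202 and 198 CPM with Hoxb1 alone, 618, 637 and 619.6 CPM with SAG alone and 630.5, 611 and 617 CPM with both. Ptch1, the receptor and main feedback inhibitor, was by contrast higher in every library with SAG, Hoxb1 lowered it without SAG, and the groups with SAG overlapped (difference 0.46, SE 0.0578, adjusted p = 3.81e-07). Hhip, a ligand trap, was at 23.4, 33.6 and 31.7 CPM with neither, 11.9, 11.2 and 11.6 with Hoxb1 alone, 29.4, 29.8 and 30.5 with SAG alone and 35.2, 32.8 and 31.8 with both. The Hoxb1-alone libraries lay below the other 9 for Hhip, which is on chromosome 8, and the difference was 1.51 (SE 0.131, adjusted p = 2.54e-09). Cdon (0.7) and Gas1 (0.98) were also higher and the ligand-release gene Scube2 lower (-2.0), and Smo, Sufu, Gli2 and Gli3 were not called, with adjusted p of 0.714, 0.151, 0.697 and 0.527. Shh, the ligand, was raised by SAG and lowered by Hoxb1 in both settings (38.1, 17.4, 144 and 72.1 CPM, difference 0.13, SE 0.078, adjusted p = 0.204).

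The differences of the Hoxb1 effects on ventral patterning genes did not follow a common course. Foxa2 was at 9.59, 9.43 and 8.04 CPM with neither, 3.41, 4.41 and 4.45 CPM with Hoxb1 alone, 84, 79.8 and 81.7 CPM with SAG alone and 102, 100.5 and 97.9 CPM with both. Foxa2, the floor plate factor, was lowered by Hoxb1 at the low level without SAG and raised at the high level with SAG, without overlap between groups. The Hoxb1 effect on Foxa2 was -1.14 without and 0.29 with SAG (log2), a difference of 1.44 (SE 0.129, adjusted p = 3.65e-12). Other floor plate genes had a lower Hoxb1 effect with SAG: Corin was at 21.4, 9.01, 37.1 and 6.66 CPM (-1.23) and Spon1 at 158, 238, 416 and 186 CPM (-1.75). Of the 14 floor plate genes 3 had a higher and 6 a lower effect with SAG, and 9 were lowest with Hoxb1 alone (9.97% of all tested genes). Without SAG, Hoxb1 lowered 12 of the 14 (22.1% of all tested genes) and raised 1. With SAG it lowered 11 (21.9%) and raised 3. In 11 of the 14 the SAG-alone libraries were highest (9.77% of all tested genes). Nkx2-2 was at 6.34, 9.13 and 9.42 CPM with neither, 2.77, 2.78 and 3.02 CPM with Hoxb1 alone, 90.9, 88.3 and 87.1 CPM with SAG alone and 55.3, 56.2 and 57.7 CPM with both. Nkx2-2, which marks V3 progenitors, was lowered by Hoxb1 in both settings without overlap, more in fold without SAG (0.88, SE 0.156, adjusted p = 1.47e-05), while the difference in CPM was -26.9. Olig2 was at 35.2, 35.7 and 38.8 CPM with neither, 17.3, 17.8 and 17.5 CPM with Hoxb1 alone, 30.6, 32.3 and 33.8 CPM with SAG alone and 31.7, 32.4 and 32 CPM with both. Olig2, the motor neuron progenitor factor, was lowest with Hoxb1 alone, the 3 other groups lying between 30.6 and 38.8 CPM (difference 1.05, SE 0.0849, adjusted p = 1.66e-13).

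Nkx2-1 was at 2.21, 1.86 and 1.45 CPM with neither, 1.21, 0.851 and 0.862 CPM with Hoxb1 alone, 99.3, 104 and 108 CPM with SAG alone and 8.58, 11.6 and 9.63 CPM with both. Nkx2-1, a factor of the ventral forebrain, was raised by SAG and stood far lower when Hoxb1 was present with SAG, with no overlap. For Nkx2-1 the Hoxb1 effects were -0.91 without and -3.38 with SAG (log2), differing by -2.47 (SE 0.346, adjusted p = 3.02e-07). Dbx1 was at 72, 72.4 and 71.2 CPM with neither, 118, 115 and 113 CPM with Hoxb1 alone, 31.9, 31.1 and 33.7 CPM with SAG alone and 9.9, 8.46 and 9.23 CPM with both. Dbx1, a factor of V0 progenitors, was highest with Hoxb1 alone and lowest with both, and no groups overlapped. Dbx1 had Hoxb1 effects of 0.68 without and -1.81 with SAG (log2), and the difference was -2.5 (SE 0.0754, adjusted p = 1.82e-27). Dbx2 (-2.08), Gsx1 (-2.63) and Gsx2 (-2.33), other intermediate and dorsal progenitor factors, changed sign in the same way as Dbx1. In the serotonergic list the transporter gene Slc6a4 (chromosome 11) was at 0.22, 0.363, 11.1 and 2.12 CPM and had a difference of -3.1 (SE 0.585, adjusted p = 4.03e-05), and Fev, which specifies these neurons, was not called (adjusted p = 0.76). Neurog2, a proneural factor, was at 38.8, 43.7, 13.6 and 7.29 CPM and changed sign (-1.07, SE 0.119, adjusted p = 5.37e-09), and Neurod4 rose more with SAG (1.29).

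Along the front to back axis, the differences of the Hoxb1 effects were mostly upward for midbrain genes and split for forebrain genes. Wnt1 was at 102, 103 and 103 CPM with neither, 28.5, 28.2 and 27.3 CPM with Hoxb1 alone, 33.7, 35.4 and 35.7 CPM with SAG alone and 62.4, 58.6 and 61.3 CPM with both. Wnt1, the signal of the midbrain-hindbrain boundary and the dorsal midline, was highest with neither, fell with Hoxb1 alone, and rose with Hoxb1 on top of SAG, without overlap between Hoxb1 states in either setting. The Hoxb1 effect on Wnt1 was -1.87 without and 0.8 with SAG (log2), a difference of 2.67 (SE 0.0657, adjusted p = 1.35e-30). En1 (-1.23 and 0.26) and En2 (-0.74 and 0.54) changed sign in the same direction, and 8 of 11 midbrain and isthmus factors had a higher effect with SAG and 1 a lower. Of 18 forebrain and eye field factors 5 had a higher and 8 a lower effect with SAG, and 9 were lowest with both (11.1% of all tested genes). Hoxb1 lowered 14 of the 18 and raised 1 without SAG (22.1% and 24.1% of all tested genes). With SAG it also lowered 14 and raised 1 (21.9% and 21.4%). Dlx2 was at 23.6, 19, 69.1 and 17.2 CPM (-1.69), while Otx2, the forebrain and midbrain selector, had effects of -1.08 and -1.04, a difference of 0.04 (SE 0.0548, adjusted p = 0.591). Among 18 dorsal and intermediate factors 8 were higher and 6 lower, 9 of them cancelling, with Pax7 at 13, 39.6, 0.0807 and 3.08 CPM rising more in fold with SAG (3.54, SE 0.402, adjusted p = 1.67e-09), while the difference in CPM was -23.6.

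Cancelling was most frequent by count of the 47 lists in the integrated stress response, in which ATF4 switches on amino acid transport, serine and one-carbon synthesis and tRNA charging: most of these genes were high with neither and lower with Hoxb1, with SAG and with both. Of 28 tested members 26 passed, 22 under cancelling, 24 with a higher and 2 with a lower effect with SAG, and the median Hoxb1 effect went from -1.58 to -0.31 (log2). In 27 of the 28, all 3 libraries with neither lay above the other 9, which held for 13.3% of all tested genes. Promoters of 3 members are shown because ATF4 with a C/EBP partner is known to bind TGATGNAA. The 250 bases before the start are from RefSeq (GRCm38.p6), with TGATGNAA on either strand in capitals, for Slc7a11 (chr3:50443614-50443863, minus strand), Asns (chr6:7693210-7693459, minus strand) and Chac1 (chr2:119350992-119351241, plus strand).
Slc7a11: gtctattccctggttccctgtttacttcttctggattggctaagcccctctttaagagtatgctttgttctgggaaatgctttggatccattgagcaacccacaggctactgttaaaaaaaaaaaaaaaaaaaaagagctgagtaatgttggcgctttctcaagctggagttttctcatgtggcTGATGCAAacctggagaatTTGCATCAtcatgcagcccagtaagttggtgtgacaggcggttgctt
Asns: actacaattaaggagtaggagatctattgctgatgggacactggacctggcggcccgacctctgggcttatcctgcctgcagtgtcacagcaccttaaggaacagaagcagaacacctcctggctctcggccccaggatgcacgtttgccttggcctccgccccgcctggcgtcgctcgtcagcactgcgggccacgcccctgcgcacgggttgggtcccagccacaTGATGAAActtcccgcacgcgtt
Chac1: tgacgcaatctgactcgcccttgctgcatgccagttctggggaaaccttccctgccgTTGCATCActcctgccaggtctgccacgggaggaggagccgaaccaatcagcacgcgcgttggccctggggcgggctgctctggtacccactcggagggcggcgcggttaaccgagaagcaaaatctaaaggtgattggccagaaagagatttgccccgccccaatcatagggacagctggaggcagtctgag
The letters occurred in 8 of the 30 promoters found for this list (26.7%), in 5 of the 7 of aminoacyl-tRNA synthetases (71.4%) and in 2.27% of those of tested genes.

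Atf5 was at 701, 818 and 860.0 CPM with neither, 59.5, 62.3 and 63.4 CPM with Hoxb1 alone, 47.2, 55.2 and 54.5 CPM with SAG alone and 50.7, 47.7 and 46.5 CPM with both. Atf5, a bZIP factor of the stress response, was high only with neither, where its libraries were far above those of any other group. For Atf5 the Hoxb1 effects were -3.68 without and -0.12 with SAG (log2), differing by 3.57 (SE 0.137, adjusted p = 2.94e-08). Trib3 was at 89.7, 109.9 and 112 CPM with neither, 9.65, 9.05 and 9.34 CPM with Hoxb1 alone, 14.5, 21.8 and 19.3 CPM with SAG alone and 5.94, 6.12 and 6.43 CPM with both. Trib3, an inhibitor induced by ATF4, fell with Hoxb1 in both settings and more without SAG, a difference of 1.88 (SE 0.274, adjusted p = 0.000492). Aldh1l2 was at 170.5, 188 and 191 CPM with neither, 36.5, 33.6 and 37.1 CPM with Hoxb1 alone, 14.5, 15.9 and 14.5 CPM with SAG alone and 12.7, 12.7 and 12.2 CPM with both. Aldh1l2, a mitochondrial folate enzyme, kept the order neither, Hoxb1 alone, SAG alone, both, with a difference of 2.09 (SE 0.0887, adjusted p = 1.96e-22). Asns, asparagine synthetase, was at 649, 220.4, 192 and 174 CPM (1.41), and the cystine transporter gene Slc7a11 at 31.8, 3.99, 8.19 and 2.99 CPM (1.52). Chac1 was at 131, 143 and 136 CPM with neither, 21.6, 15.5 and 17.7 CPM with Hoxb1 alone, 32.7, 53.5 and 47.3 CPM with SAG alone and 7.13, 7.62 and 6.43 CPM with both. Chac1, a glutathione-degrading enzyme, was not called: its Hoxb1 effects were -2.89 and -2.66, a difference of 0.23 (SE 0.324, adjusted p = 0.637). Atf4 itself changed less, at 390.2, 205, 283 and 198 CPM (0.41), and Cbs (-0.69) and Ddit4 (-0.3) had a lower effect with SAG.

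Aminoacyl-tRNA synthetases moved as a group: all 13 tested passed, all under cancelling and all highest in the 3 libraries with neither, with a median difference of 0.75 and median effects of -1.03 without and -0.25 with SAG. Lars, which charges leucine, was at 516, 537 and 539 CPM with neither, 233, 228 and 237 with Hoxb1 alone, 234, 245 and 239.8 with SAG alone and 237, 225 and 229 with both. The 3 lower groups of Lars overlapped and the libraries with neither stood above them, with a difference of 1.13 (SE 0.044, adjusted p = 8.93e-24). Cholesterol and fatty acid synthesis genes were lowest with neither in 18 of 20 (12.2% of all tested genes) and highest with both in 16 (10%). Hoxb1 raised 19 of the 20 without SAG and 16 with SAG (24.1% and 21.4% of all tested genes). In the difference 17 passed, all under cancelling with a lower effect with SAG, and the median effect went from 0.75 to 0.32. Hmgcs1, which makes HMG-CoA for sterols, was at 402, 340.2 and 333 CPM with neither, 729.6, 735 and 761 with Hoxb1 alone, 941, 862 and 884 with SAG alone and 1186, 1132 and 1137 with both. Its difference was -0.69 (SE 0.0865, adjusted p = 8.55e-05), and that of the fatty acid synthase gene Fasn, on chromosome 11 and at 504, 875, 604 and 602 CPM, was -0.8 (SE 0.0427, adjusted p = 3.81e-19). Of 16 glycolysis and hypoxia genes 2 were higher and 9 lower, with the glucose transporter gene Slc2a1 at 158, 175, 406 and 195 CPM (-1.21, SE 0.0459, adjusted p = 4.44e-24) and Vegfa higher (0.88). Replication and mitosis genes changed little in size, with a median difference of -0.17 (log2), for example Cdk1 (-0.47, SE 0.055, adjusted p = 3.57e-09). Of 24 tested, 19 passed (35.5% of all tested genes), 14 lower and 5 higher (18.6% and 16.8%).

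**Figure D5:**
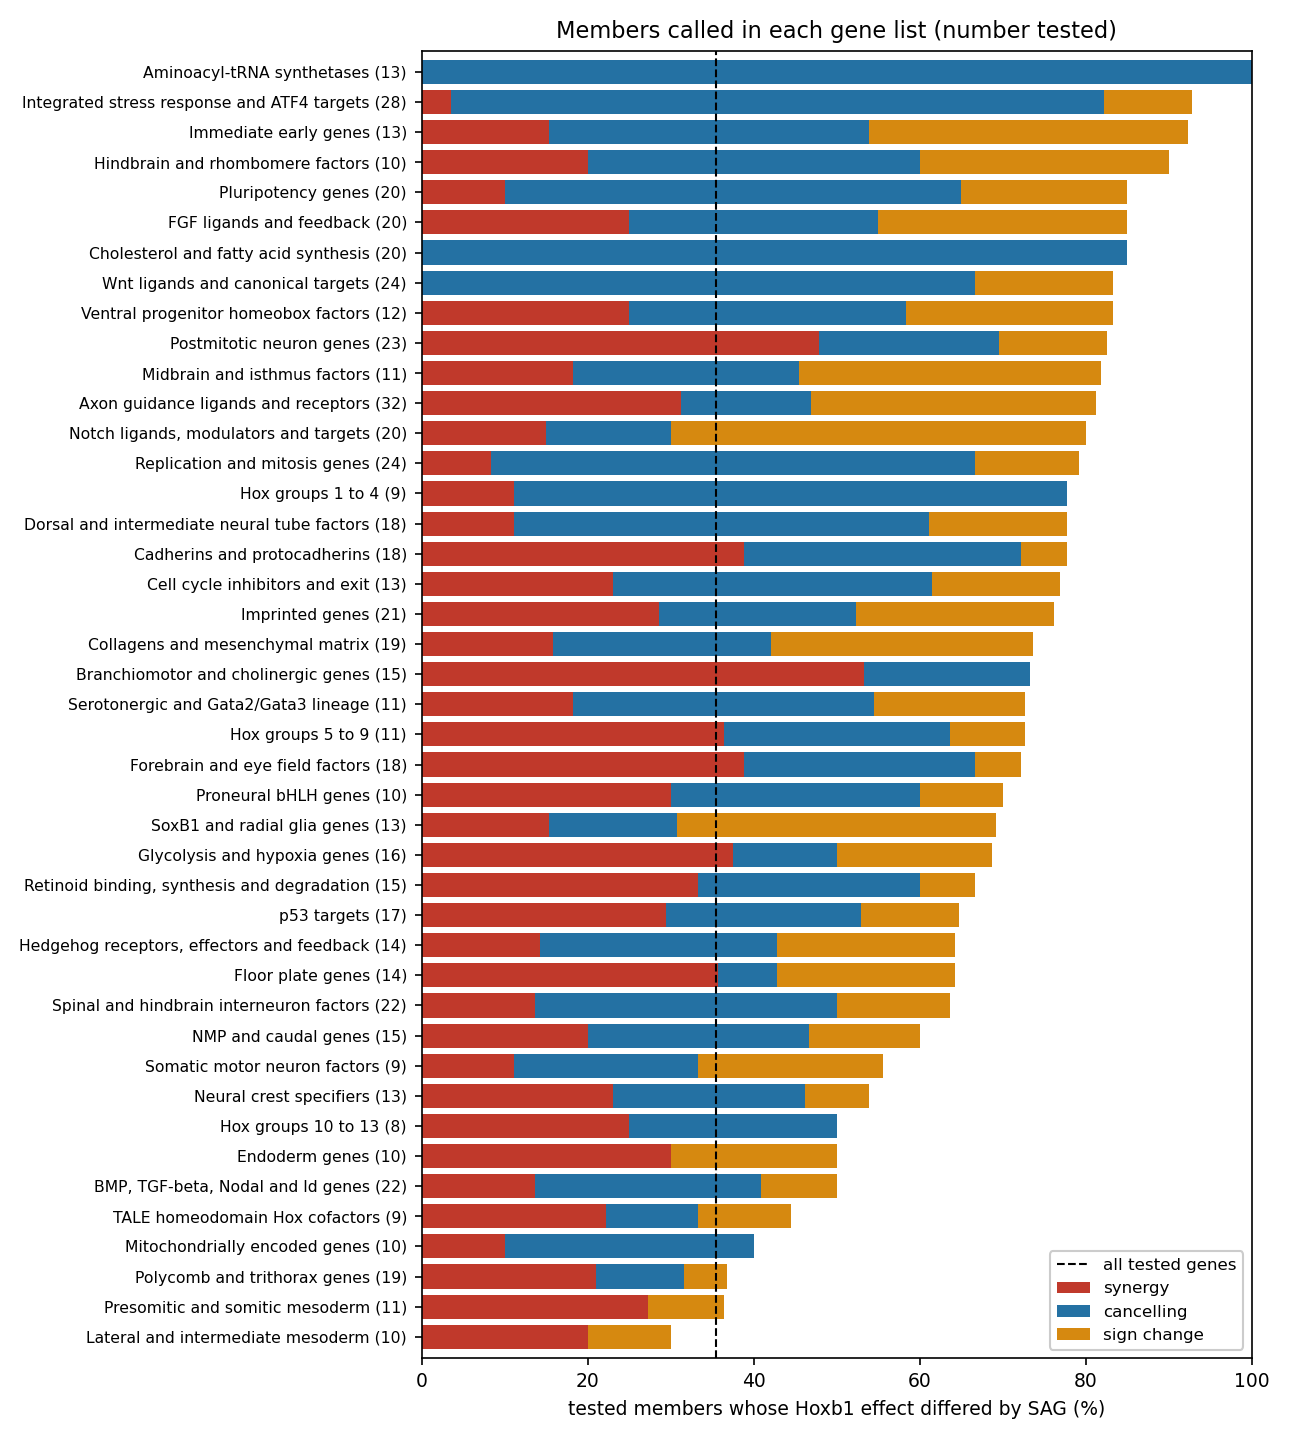
Share of the tested members of each gene list (horizontal axis, percent; number tested in brackets) whose Hoxb1 effect differed by SAG, split by class; the dashed line is the 35.5% of all tested genes. Aminoacyl-tRNA synthetases, cholesterol and stress genes are mostly blue (cancelling), Notch genes are mostly orange (sign change), and the presomitic and lateral mesoderm and polycomb lists lie near the dashed line.

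Of the signalling lists, Wnt genes were mostly cancelling. Of 24 Wnt ligands and targets 20 passed (35.5% of all tested genes), 11 with a higher and 9 with a lower effect with SAG (16.8% and 18.6%). Of these, 16 fell under cancelling, 4 under sign change and none under synergy (19.4%, 5.61% and 10.5% of all tested genes). The Wnt agonist genes Rspo2 (132, 28, 17.5 and 12.1 CPM) and Rspo3 (83, 21.1, 4.4 and 4.59 CPM) fell with Hoxb1 mainly without SAG (1.71 and 2.04), whereas the Wnt antagonists Sfrp1 (chromosome 8, -0.79) and Sfrp2 (-1.57) rose more without SAG. Lgr5, an R-spondin receptor, was at 7.52, 7.87 and 9.56 CPM with neither, 26.3, 24.4 and 25.9 with Hoxb1 alone, 8.26, 8.76 and 9.05 with SAG alone and 6.03, 5.44 and 4.98 with both. Lgr5 stood high with Hoxb1 alone and lowest with both, and its difference was -2.28 (SE 0.135, adjusted p = 1.27e-17). Of 20 FGF ligands and feedback genes 12 were higher and 5 lower (16.8% and 18.6% of all tested genes). The feedback phosphatase gene Dusp6 fell from 328 ± 26 to 187 ± 6.6 CPM without SAG and rose from 127 ± 4.26 to 194 ± 5.32 CPM with SAG (SD, n = 3 each; difference 1.42, SE 0.0617, adjusted p = 2.2e-15), and Spry1, Spry2, Spry4, Etv4 (chromosome 11) and Etv5 were higher by 0.6, 0.87, 0.51, 0.65 and 0.35. In the BMP, TGF-beta and Id list 11 of 22 passed (50%, against 35.5% of all tested genes), 7 higher and 4 lower (against 16.8% and 18.6%). Id4 (-1.22), Id3 (-0.91) and Id1 (-0.82) had a lower effect with SAG, and Bmp6 rose with Hoxb1 only with SAG (1.64, 1.16, 1.61 and 7.88 CPM, 2.8). Immediate early genes were mostly higher, 11 of 13 against 1 lower (16.8% and 18.6% of all tested genes). Among them Myc was at 17.7, 13.1, 10.1 and 21.6 CPM (1.53, SE 0.109, adjusted p = 4.58e-15).

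Most pluripotency genes were lowest with Hoxb1 alone. Of 20 tested, 17 passed (35.5% of all tested genes), 15 higher and 2 lower (16.8% and 18.6%), with 11 under cancelling (19.4%). In 18 of them the 3 Hoxb1-alone libraries were lowest (9.97% of all tested genes). Esrrb was at 48.9, 56.4 and 49.3 CPM with neither, 23.8, 25.6 and 25.6 with Hoxb1 alone, 52.4, 53.2 and 46.7 with SAG alone and 50.7, 47.8 and 47.3 with both. Only the Hoxb1-alone libraries stood apart for Esrrb, and its difference was 0.98 (SE 0.0836, adjusted p = 1.64e-12). Zfp42 (1.16) and Klf2 (1.02), both on chromosome 8, and Tfcp2l1 (1.12) followed it, while Pou5f1 had a difference of 0.05 (SE 0.123, adjusted p = 0.787) and Fgf5, a gene of the primed state, was lower (-1.92, SE 0.337, adjusted p = 1.23e-05). The sum of the pluripotent cell markers Pou5f1, Nanog and Zfp42 was 119 to 136 CPM with neither, 66 to 81.2 with Hoxb1 alone, 241 to 265 with SAG alone and 186 to 211 with both, and its part in these results was not tested.

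Matrix, imprinted and other genes added single large changes. Col1a2 was at 134, 133 and 130.1 CPM with neither, 547, 529 and 517 CPM with Hoxb1 alone, 277, 289 and 281 CPM with SAG alone and 285, 265 and 283 CPM with both. Col1a2, a chain of type I collagen, was raised by Hoxb1 alone to a level above all other libraries, and the groups with SAG overlapped (-2.03, SE 0.0468, adjusted p = 1.44e-31). Its partner chain Col1a1, on chromosome 11, was at 77.1, 103, 499 and 428 CPM, with a smaller difference in the same direction (-0.64). The mesenchyme markers Col1a1, Col1a2 and Postn summed to 213 to 230 CPM with neither, 654 to 682 with Hoxb1 alone, 810 to 847 with SAG alone and 795 to 862 with both. The imprinted gene Peg10 was at 422, 443 and 456 CPM with neither, 654, 619 and 622 with Hoxb1 alone, 1880.3, 1851 and 1913 with SAG alone and 955, 921 and 959 with both. Hoxb1 raised Peg10 without SAG and lowered it with SAG, without overlap (-1.51, SE 0.0437, adjusted p = 3.56e-28). In all, 16 of 21 imprinted genes passed (35.5% of all tested genes), 6 higher and 10 lower (16.8% and 18.6%).

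The genes with the largest differences of each kind, taken by a fixed rule at 10 CPM or more, were partly outside the lists. Among synergy genes that rose, Stab1 was at 7.37, 7.72 and 6.96 CPM with neither, 8.66, 9.28 and 7.76 with Hoxb1 alone, 0.433, 0.36 and 0.382 with SAG alone and 15.6, 18.7 and 19.2 with both, a difference of 5.28 (SE 0.225, adjusted p = 2.52e-22). Hprt, an X-linked purine salvage gene, had the same pattern at 3.69, 4.38 and 4.42 CPM, 6.1, 6.26 and 7.83 CPM, 0.606, 0.649 and 0.637 CPM and 17.2, 14.9 and 14.7 CPM, a difference of 3.91 (SE 0.236, adjusted p = 2.26e-17). For Stab1 and Hprt, SAG alone gave the lowest level and both agents the highest, without overlap between groups, and Tmem132b (12.9, 24.5, 3.04 and 68.8 CPM, 3.56) was alike. Among synergy genes that fell, the calcium pump gene Atp2a3 (chromosome 11) was at 12.3, 5.02, 36.1 and 3.69 CPM (-2.0, SE 0.17, adjusted p = 7.89e-13). Genes that turned from fall to rise were led, after Cntn2, by Fam163a (18.1, 12.1, 2.74 and 18.5 CPM, 3.32), the protease gene Pappa (35, 13.3, 20.1 and 53.3 CPM, 2.81), Col15a1 (4.68, 1.6, 16.3 and 39 CPM, 2.79) and the collagen receptor gene Ddr2 (61.7, 13.4, 28.6 and 41.8 CPM, 2.75).

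Genes that turned from rise to fall were led, after Hes5, by Prelp (10.1, 18.8, 10.6 and 2.43 CPM, -3.01), Slc32a1, Bhlhe41 (6.53, 25.3, 7.05 and 3.89 CPM, -2.81) and the BMP modulator gene Bmper (2.5, 12.8, 2.78 and 2.02 CPM, -2.8). Slc32a1, the vesicular transporter of inhibitory neurons, was at 15.5, 18.9 and 19.1 CPM with neither, 36.3, 35.6 and 37.8 with Hoxb1 alone, 24, 22.9 and 22.6 with SAG alone and 6.6, 5.8 and 6.07 with both. The libraries with both lay below all others for Slc32a1, and the difference was -2.95 (SE 0.107, adjusted p = 9.85e-25). Cancelling risers beside Hoxb3 and Hoxaas2 were the synaptic vesicle gene Rph3a (4.66, 27.9, 3.12 and 2.81 CPM, -2.73), Crym (2.52, 52.6, 3.95 and 13.4 CPM, -2.62) and Sh3rf3 (3.91, 17.1, 7.17 and 6.29 CPM, -2.32). Cancelling fallers beside Atf5, Cebpb and Aldh1l2 were Trim66 and Dmrt3. Trim66 was at 184, 252 and 262 CPM with neither, 6.88, 6.5 and 8.98 with Hoxb1 alone, 1.56, 2.99 and 2.08 with SAG alone and 1.14, 1.29 and 1.25 with both, a difference of 4.09 (SE 0.758, adjusted p = 0.00274), and its libraries with neither stood far above the rest. Dmrt3, a factor of dorsal interneuron progenitors, was at 12.1, 2.63, 0.672 and 0.684 CPM, a difference of 2.23 (SE 0.355, adjusted p = 2.28e-06).

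The NMP libraries gave a readout that the classes did not use. Wild-type and null NMPs also differed in Y-linked genes. Eif2s3y was at 22 CPM in the wild type and 53.8 in the null (log2 change 1.29). Ddx3y was at 28.1 and 47.8 CPM (0.77) and Uty at 24.2 and 29.2 CPM (0.27). Gm47283, also annotated to Y, was not called (-0.13). The part of these differences in the NMP results was not tested. Leaving out 1 NMP library gave 2928 to 5097 called genes, against 4327 with all. Of all genes tested in NMPs 28.8% were called, and of 14531 genes tested in both fits, 4169 (28.7%) differed between Hoxb1-null and wild-type NMPs, 2121 higher in the null (14.6%) and 2048 lower (14.1%). Of the cancelling genes that fell with Hoxb1 alone, 281 of 1448 were higher and 189 lower in the null, and of those that rose, 251 of 1520 were higher and 291 lower. Of the synergy genes that rose, 112 of 763 were higher and 153 lower in the null, and of those that fell, 152 of 757 were higher and 129 lower. Of the genes turning from rise to fall, 120 of 487 were higher and 99 lower, and of those turning from fall to rise, 59 of 337 were higher and 56 lower. The median change in the null lay between -0.0197 and 0.0253 (log2) over the 6 kinds, and these counts carry no test. In the null, by the NMP fit, Hoxb2 changed by -3.33, Gli1 by 0.56 and Atf5 by 0.6 (adjusted p = 7.31e-19, 0.000328 and 1.8e-08).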

How the data were processed

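RNA of neural progenitors and NMPs was sequenced after poly(A) selection with a strand-specific kit, per the labels' protocols. The authors deposited 1 table of raw counts per gene, made with bcl2fastq 1.8.2 and featureCounts 1.4.6 on mm10, per the submitters' processing notes. It holds 37224 genes, 1775 of them without a symbol, and is not normalized.

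Counts were kept where filterByExpr (edgeR 4.0.16, R 4.3.3) passed them, scaled by TMM and fitted with 1 mean per group over the 12 libraries. The difference of Hoxb1 effects was tested with edgeR's quasi-likelihood F-test and Benjamini-Hochberg adjustment over 16238 genes at 0.05. Adjusted p-values in the text are from this test, except those of the Hoxb1-null NMPs, which are from the same edgeR test in a separate fit of the NMP libraries. Code was tested on simulated data. DESeq2 1.42.0 and limma 3.58.1 served alternatives and support, and figures were drawn with matplotlib 3.10.9 (Python 3.11.15).

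The members, the 47 gene lists and the motif letters were chosen with earlier results of these data known, the RBPJ and ATF4 letters after seeing the results. Named genes are Hoxb1 and a preset list, the 5 called genes of each kind with the largest difference at 10 CPM or more, and up to 3 called members of each list at 1 CPM or more. Further list members are examples outside this rule, chosen after their values were seen. Promoters came from RefSeq, with 11501 tested genes matched by symbol. Same-numbered libraries had residual correlations of -0.129 to 0.387, over 0.1 in 4 of 18 pairs. The largest were between SAG alone and both, 0.387 for the first libraries and 0.369 for the second, against 0.021 for the third. A pairing by number within these groups is thus possible. The main fit did not pair samples, and counts from a fit with the number as a block are given below. Some members of the lists are counted in them but are not reported here.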

Additional observations from a re-analysis of the deposited data

How the results depend on the processing

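The counts of genes kept their size within 1.5 times under every alternative except a test against a log2 difference of 0.5 (edgeR's glmTreat), which left 437 genes higher, 497 lower, 244 in synergy, 341 in cancelling and 349 in sign change. DESeq2 called 2198 higher and 2542 lower. Leaving out 1 library gave 2451 to 2822 higher, 2717 to 3023 lower, 1513 to 1838 in synergy, 2829 to 3089 in cancelling and 772 to 930 in sign change. With the replicate number as a block, 2833 genes were higher and 3111 lower, with 1776 in synergy, 3208 in cancelling and 960 in sign change.

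On the additive CPM scale the difference took the opposite sign for Hoxb2 (4.74), Shh (-51.7), Nkx2-2 (-26.9), Meis1 (chromosome 11, -44.5), T (-11.5), Meis3 (3.41), Pax7 (-23.6), Pax8 (-27.9), Nhlh1 (-42.8) and Tfap2b (-16.3), since a fold and a rise in CPM weight the start level differently. Hoxb1, not called, ranged from -0.21 without the second library with neither to 1.01 without the third, and Nkx2-9, not called, from -0.20 without the second library with neither to 0.34 without the first. Of 169 genes named by rule 162 were called, and 119 kept the call and sign under every alternative that tested them. Some low genes were not tested under every alternative. The additive CPM scale is left out of this count, since it has no test and gives the reversals above. Levels under about 1 CPM rest on few counts, which limits the posterior Hox genes, Tbx20 without SAG and Pax7 with SAG alone.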
